A study of Mus musculus with 2 samples.

Results

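The genes of alternative activation, the macrophage state driven by interleukin 4 (IL-4) and interleukin 13 (IL-13), were described here by 9 members, Retnla, Chil3, Mrc1, Mgl2, Clec10a, Cd163, Folr2, Il4ra and Ecm1. They were taken by symbol from the gene table that both deposited matrices share, where all 9 were found among 32285 genes, and each is described in macrophages, monocytes and dendritic cells. The diabetic library came from mice given type 1 diabetes with streptozotocin, which kills pancreatic beta cells, and the normoglycemic library from mice without it. Both groups had 2 weeks of bacteria-induced inflammation and 2 weeks of waiting, and gingival cells from 4 mice per group were pooled into a single library. All mice had the genotype CD11CCre-/-;FoxoLL on a mixed C57B6 and FVB background, so Foxo1 carried loxP sites but no Cre was present, and the series description gives its protein as normal. DAPI+, CD31+ and Ter-119+ cells were sorted away, CD45+ cells were kept, CD11c+CD45+ cells were enriched by 20%, and 10000 cells were loaded per lane. Shares of cells between classes were therefore set in part by the sort. With 1 library per condition there is no replicate check, no p-value was computed, and every interval given is a 95% interval that covers counting error only. UMIs (unique molecular identifiers, each marking 1 captured transcript) of the same cell are not independent, so the intervals are too narrow for genes carried by few cells.

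IL-4 and IL-13 signal through the IL-4 receptor alpha chain, encoded by Il4ra, to the transcription factor STAT6. In mouse macrophages this raises secreted proteins such as the resistin-like protein encoded by Retnla and the chitinase-like protein encoded by Chil3, and lectin receptors such as those encoded by Mrc1, Mgl2 and Clec10a. Several of the same genes also mark cell types apart from that response: Chil3 marks classical monocytes, Cd163 and Folr2 mark resident macrophages around vessels, and Mgl2 and Clec10a mark type 2 conventional dendritic cells.

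The diabetic matrix held 10496 barcodes with 78220582 UMIs and the normoglycemic matrix 11280 barcodes with 89339733 UMIs. The median kept cell had 4631.5 UMIs in the diabetic and 5302.5 UMIs in the normoglycemic library, and 32 barcode sequences occurred in both libraries. Cells were assigned one by one to classes from marker genes that exclude the 9 members. The classes are macrophage-like, monocyte-like and dendritic-cell-like by those markers and are called macrophages, monocytes and dendritic cells here for short. Macrophages numbered 1110 diabetic and 1194 normoglycemic cells, with C1qb detected in 91.6% and 94.6% of them. Monocytes numbered 832 diabetic and 1039 normoglycemic cells, with Vcan detected in 87.5% and 88.4%. Type 1 conventional dendritic cells numbered 217 diabetic and 209 normoglycemic cells (Xcr1 in 72.8% and 83.2%), type 2 conventional dendritic cells 436 and 531 cells, and mature dendritic cells 69 and 71 cells (Ccr7 in 97.1% and 95.8%). Among type 2 conventional dendritic cells, Cd209a, one of the markers used, was detected in 35.8% of diabetic and 80.4% of normoglycemic cells, whereas Flt3 was detected in 64.4% and 57.4%, so the 2 libraries differed in the makeup of that class or in Cd209a itself, which cannot be told apart. The part of such a difference in makeup in the member and list ratios of that class was not tested. Type 1 conventional dendritic cells passed the per-cell markers but mostly did not form a cluster of their own, since 18.4% of the diabetic and 11.5% of the normoglycemic ones lay in clusters of that name. Between 1 and 66 cells of a class and library lay within 0.1 score units of the limit between classes.

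The promoters of Retnla and Chil3 are shown because these were the members with the lowest and the highest ratio between libraries in macrophages, and because they were the members whose promoters held a palindrome of the type STAT6 binds. Both sequences are from RefSeq on the GRCm38.p6 build and are printed 5′ to 3′ on the gene's strand up to the base before the gene start. Capitals mark the palindrome.
Retnla promoter, chr16:48842359-48842550, plus strand: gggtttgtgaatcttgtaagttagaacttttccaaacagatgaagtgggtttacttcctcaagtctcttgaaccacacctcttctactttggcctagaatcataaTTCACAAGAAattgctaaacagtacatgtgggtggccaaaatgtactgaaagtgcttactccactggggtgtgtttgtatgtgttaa
Chil3 promoter, chr3:106167565-106167814, minus strand: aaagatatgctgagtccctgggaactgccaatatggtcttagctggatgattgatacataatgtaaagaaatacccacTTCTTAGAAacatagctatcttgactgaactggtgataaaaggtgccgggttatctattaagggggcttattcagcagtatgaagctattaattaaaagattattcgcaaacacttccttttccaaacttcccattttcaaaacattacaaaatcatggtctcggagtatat
The Retnla window held TTCACAAGAA, which has TTC and GAA with 4 bases between them and begins 87 bases before the gene start. The Chil3 window held TTCTTAGAA, which has TTC and GAA with 3 bases between them and begins 172 bases before the gene start. Both motifs read the same on either strand, so a search of 1 strand finds both, and neither window held the other motif. The RefSeq table gave 9 promoters for 8 of the 9 members, with none printed for Clec10a. In that table, which has 32851 promoters, 6.95% held the motif with 4 bases between and 8.30% the motif with 3, so a match is a description of these letters only.

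Levels are given as CPM, the UMIs of a gene per 1000000 UMIs of its class in that library, and a ratio is the diabetic over the normoglycemic CPM. A member was called higher or lower at a ratio of at least 1.5-fold with at least 10 CPM in either library. In macrophages all 9 members were measurable: 3 were higher, 2 were lower and 4 were not called. Of the 7487 genes measured in macrophages 2.66% were higher and 3.81% were lower (6.46% in either direction). The members were chosen with earlier results of these data known, and their counts were not tested against such shares. The median log2 ratio was -0.23 over the members and -0.0037 over all genes. In monocytes 3 of the 8 measurable members were higher and 0 were lower, beside 5.57% higher and 8.01% lower of 6464 genes (13.6% in either direction). In type 1 conventional dendritic cells 1 of 6 was higher and 4 were lower, beside 5.35% and 6.79% of 6874 genes (12.1%). These type 1 calls rest on few cells, few UMIs or background levels, as given below for each gene. Their count is therefore not read as a shift of the members in that class. The type 2 class had 1 of 8 higher and 3 lower, beside 5.27% and 6.45% of 7053 genes (11.7%). Mature dendritic cells had 3 of 7 higher and 1 lower, but 12.7% of 6766 genes were higher and 20.5% lower there (33.3%), with 69 and 71 cells behind the values. The members thus did not move as 1 group: Retnla and Mgl2 were lower and Chil3, Ecm1 and Cd163 higher in macrophages of the diabetic library.

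**Figure D1:**
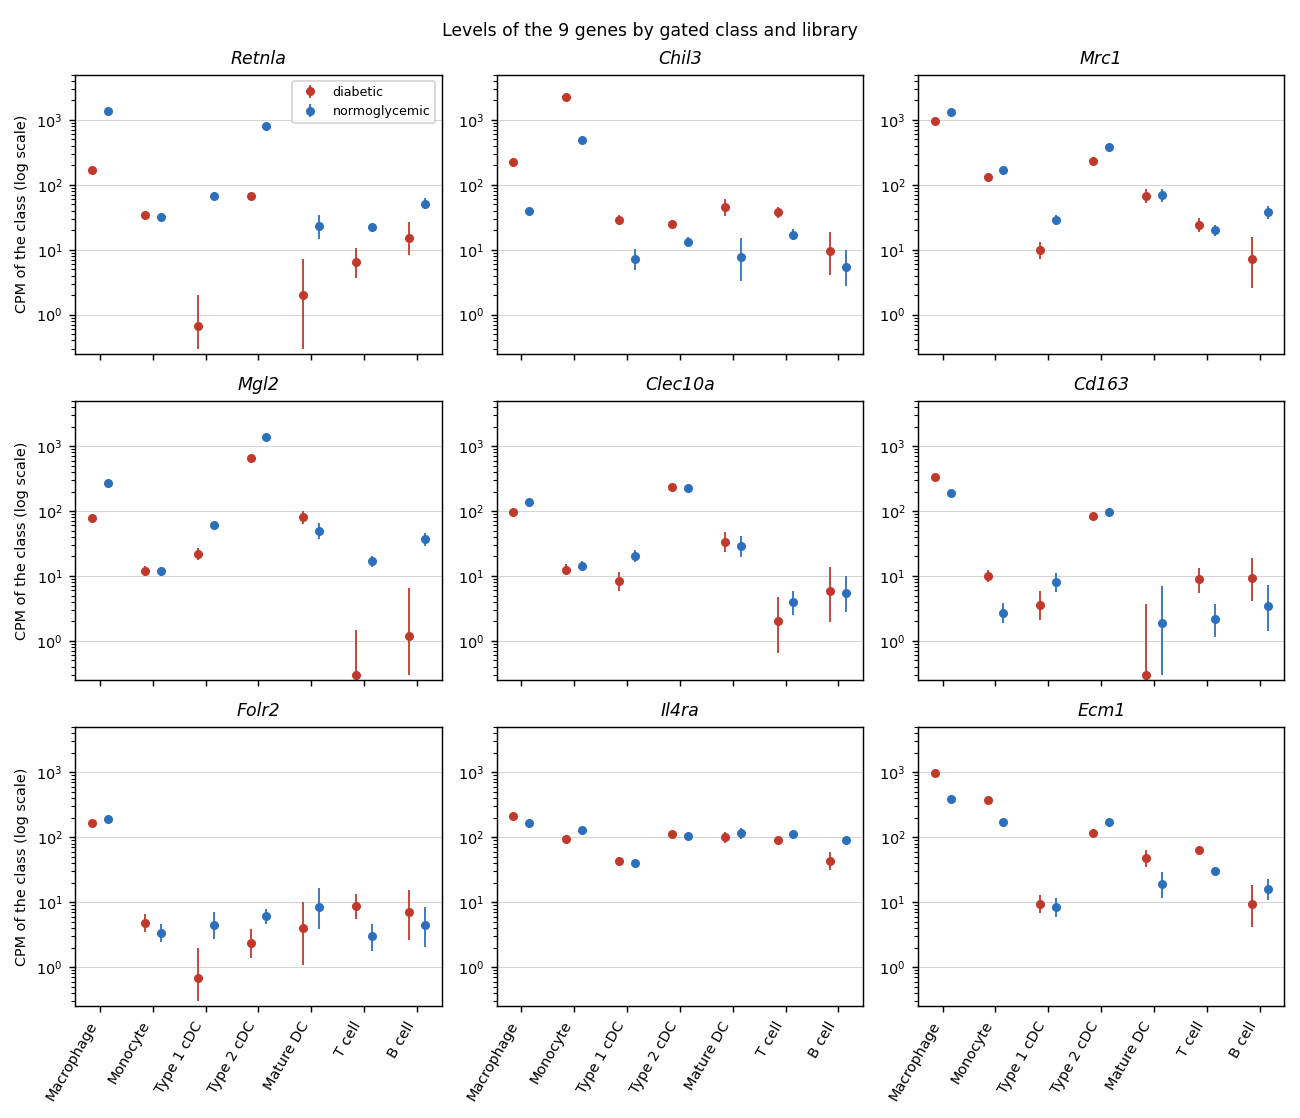
Level of each of the 9 genes in CPM (log scale) by gated class, diabetic left of normoglycemic, with exact Poisson 95% intervals; a value of 0 is drawn at the lower edge. Retnla was at 167.5 CPM in diabetic and 1359 CPM in normoglycemic macrophages, and Chil3 at 2275 CPM in diabetic and 494.9 CPM in normoglycemic monocytes.

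Retnla (ENSMUSG00000061100, chromosome 16, 48842551 to 48844461, plus strand, GRCm38) encodes resistin-like alpha, a secreted protein. It stood at 167.5 CPM in diabetic and 1359 CPM in normoglycemic macrophages, a ratio of 0.123 (0.118 to 0.129). It stood at 67.9 CPM in diabetic and 812.8 CPM in normoglycemic type 2 conventional dendritic cells, a ratio of 0.0836 (0.0759 to 0.0919). Both classes had less Retnla in the diabetic library, by 8.11-fold and 11.97-fold. In mature dendritic cells 2 Retnla UMIs were counted in the diabetic and 24 in the normoglycemic library, a ratio of 0.0870 (0.00996 to 0.350). In type 1 conventional dendritic cells 3 UMIs were counted in the diabetic and 287 in the normoglycemic library, a ratio of 0.00998 (0.00205 to 0.0295), but 2 normoglycemic cells held 245 of the 287. Monocytes, at 34.8 CPM in the diabetic and 32.0 CPM in the normoglycemic library (1.09, 0.936 to 1.27), were not called.

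Retnla was carried by few cells. In macrophages 45 of 1110 diabetic cells (4.05%, exact Clopper-Pearson interval 2.97 to 5.39) and 140 of 1194 normoglycemic cells (11.7%, 9.95 to 13.7) had at least 10 Retnla UMIs. These cells held 92.4% of the Retnla UMIs of diabetic and 98.3% of those of normoglycemic macrophages. Their median was 28 Retnla UMIs in the diabetic and 70 in the normoglycemic library, so both the share of such cells and the number of UMIs in them were lower in the diabetic library. Among type 2 conventional dendritic cells 2 of 436 diabetic cells (0.459%, 0.0556 to 1.65) and 49 of 531 normoglycemic cells (9.23%, 6.90 to 12.02) reached 10 UMIs. The 2 diabetic cells held 431 of the 454 Retnla UMIs of their class, and the other diabetic cells stood at 3.46 CPM, against 19.8 CPM in the other normoglycemic cells. Monocytes with at least 10 UMIs numbered 2 in the diabetic and 4 in the normoglycemic library, and the class level rests on them: they held 92.6% and 63.5% of its Retnla UMIs. In macrophages the highest single cell held 141 UMIs in the diabetic and 620 in the normoglycemic library.

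**Figure D2:**
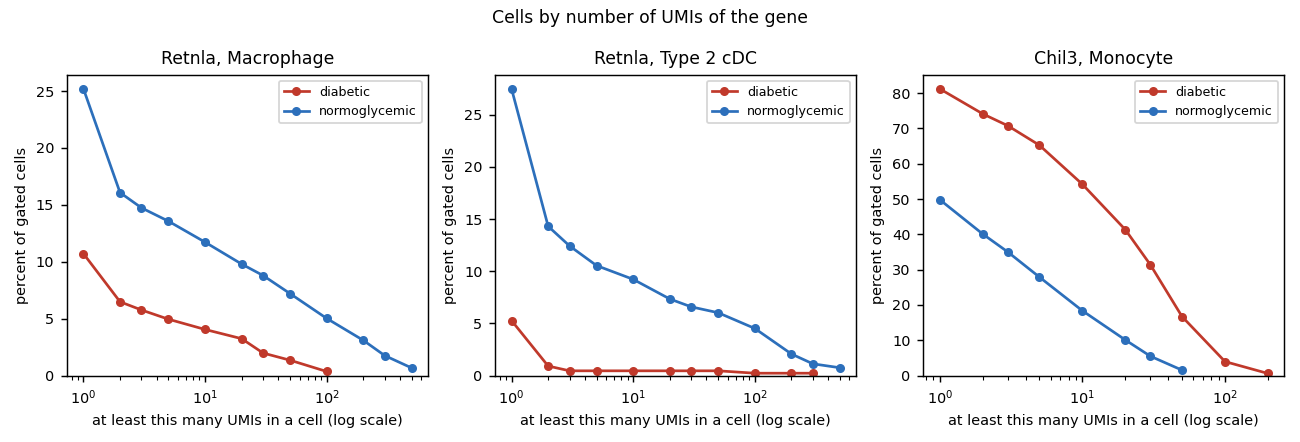
Percent of gated cells (y axis) with at least a given number of UMIs of the gene (x axis, log scale) in the diabetic and the normoglycemic library. For Retnla the diabetic curve lies under the normoglycemic one in macrophages and type 2 conventional dendritic cells (4.05% against 11.7% and 0.459% against 9.23% at 10 UMIs), and for Chil3 in monocytes it lies above.

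B cells, which should not express Retnla, served as a measure of free RNA in the droplets. A Retnla UMI was found in 10.7% of diabetic and 25.2% of normoglycemic macrophages, and in 4.70% of diabetic and 10.97% of normoglycemic B cells. The median depth was 10528 UMIs in diabetic and 11665 UMIs in normoglycemic macrophages, against 4427 and 4781 UMIs in B cells. After every cell was thinned to 1000 UMIs, the share was 5.20% (3.96 to 6.69) in diabetic and 14.0% (12.03 to 16.1) in normoglycemic macrophages. In B cells it was 0 of 149 diabetic cells, which allows up to 2.01%, and 1.95% of 308 normoglycemic cells. Macrophages lay above B cells in both libraries. Type 2 conventional dendritic cells lay above B cells in the normoglycemic library (10.4% after thinning), while the diabetic share of 0.691% (3 of 434 cells) lay within what the B cells allow. Thinned shares in monocytes (0.725% diabetic, 1.65% normoglycemic) and type 1 conventional dendritic cells (0 of 217 diabetic, 1.92% normoglycemic) are at the background of B cells. Retnla in B cells averaged 15.4 CPM in the diabetic and 51.4 CPM in the normoglycemic library, with a single normoglycemic B cell at 67 UMIs.

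Within macrophages Retnla went with Lyve1, a hyaluronan receptor gene of perivascular resident macrophages. Macrophages with a Lyve1 UMI (275 diabetic, 220 normoglycemic) had Retnla at 504.1 CPM in the diabetic and 3071 CPM in the normoglycemic library (0.164, 0.156 to 0.173). Those without (835 diabetic, 974 normoglycemic) had 52.9 and 935.9 CPM (0.0565, 0.0516 to 0.0619). Retnla was thus lower in the diabetic library on both sides of the split, and the share of macrophages with a Lyve1 UMI was not lower there. Macrophages with at least 10 Retnla UMIs had Mgl2 at 311.2 CPM, against 67.6 CPM in the other macrophages, in the diabetic library, and at 674.8 against 214.8 CPM in the normoglycemic library. Pearson correlation across cells of the natural log of 1 plus UMIs per 10000 was 0.42 for Retnla with Lyve1 over 1110 diabetic and 0.33 over 1194 normoglycemic macrophages, and 0.31 and 0.39 for Retnla with Mgl2. The cells of a library share its depth and free RNA, so these values are descriptions.

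Chil3 (ENSMUSG00000040809, chromosome 3, 106147554 to 106167564, minus strand) encodes the chitinase-like protein Ym1, a secreted lectin without chitinase activity. It stood at 2275 CPM in diabetic and 494.9 CPM in normoglycemic monocytes, a ratio of 4.60 (4.47 to 4.73). In macrophages it stood at 228.7 CPM in the diabetic and 39.98 CPM in the normoglycemic library, a ratio of 5.72 (5.24 to 6.25). Unlike Retnla it was spread over many monocytes, with a UMI in 81.2% of diabetic and 49.9% of normoglycemic ones (58.8% and 23.1% after thinning). B cells gave 2.01% of diabetic and 0 of 308 normoglycemic cells after thinning. In macrophages the thinned share was 12.7% in the diabetic and 2.04% in the normoglycemic library. The neutrophils of the diabetic library, cells in which Chil3 is known to be made during their development, held 99.7 CPM, against 12.6 CPM in the normoglycemic library.

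Chil3 was also counted in dendritic cells, at levels that few cells carried. It stood at 28.6 CPM in diabetic and 7.12 CPM in normoglycemic type 1 conventional dendritic cells (4.01, 2.68 to 6.19). There 2 diabetic cells held 83.3% of the UMIs. The type 2 class had 25.0 CPM in the diabetic and 13.1 CPM in the normoglycemic library (1.91, 1.51 to 2.43), with 4 cells per library holding 74.3% and 80.3% of the UMIs. In mature dendritic cells it stood at 44.9 and 7.65 CPM (5.87, 2.74 to 14.4). Thinned shares of 1.38%, 1.84% and 1.47% in the 3 diabetic dendritic cell classes are at or below the 2.01% of B cells, so these ratios are not read as expression in dendritic cells. Monocyte and macrophage values were above that background.

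In the splits of macrophages by Lyve1 and by H2-Aa, the side with more Chil3 was the side with less Retnla. Without a Lyve1 UMI Chil3 was at 285.6 CPM in the diabetic and 42.9 CPM in the normoglycemic library, and in those with one at 61.4 and 28.1 CPM. With H2-Aa, an MHC class II gene, under 10 per 10000 UMIs, Chil3 was at 327.1 CPM in diabetic (649 cells) and 46.0 CPM in normoglycemic macrophages (379 cells), and with more H2-Aa at 115.3 and 37.6 CPM (461 and 815 cells). Of the diabetic macrophages with a Retnla UMI 15.97% also had a Chil3 UMI, against 32.1% of those without. In the normoglycemic library the shares were 11.96% and 11.2%. Markers of monocytes summed to 2834 CPM in diabetic and 2598 CPM in normoglycemic macrophages over 8 of 8 markers, and their part in the Chil3 difference was not tested. Chil3 and its neighbour copy Chil4 were 94.4% identical over 1538 aligned transcript bases, but Chil4 received 8 UMIs in the diabetic and 30 in the normoglycemic library over the 5 classes, against 24340 and 6747 for Chil3. Retnla and its copy Retnlg, a neutrophil gene, were 84.5% identical over 587 bases and went opposite ways in summed UMIs over the same classes, 2887 diabetic and 29128 normoglycemic for Retnla and 3430 and 842 for Retnlg.

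**Figure D3:**
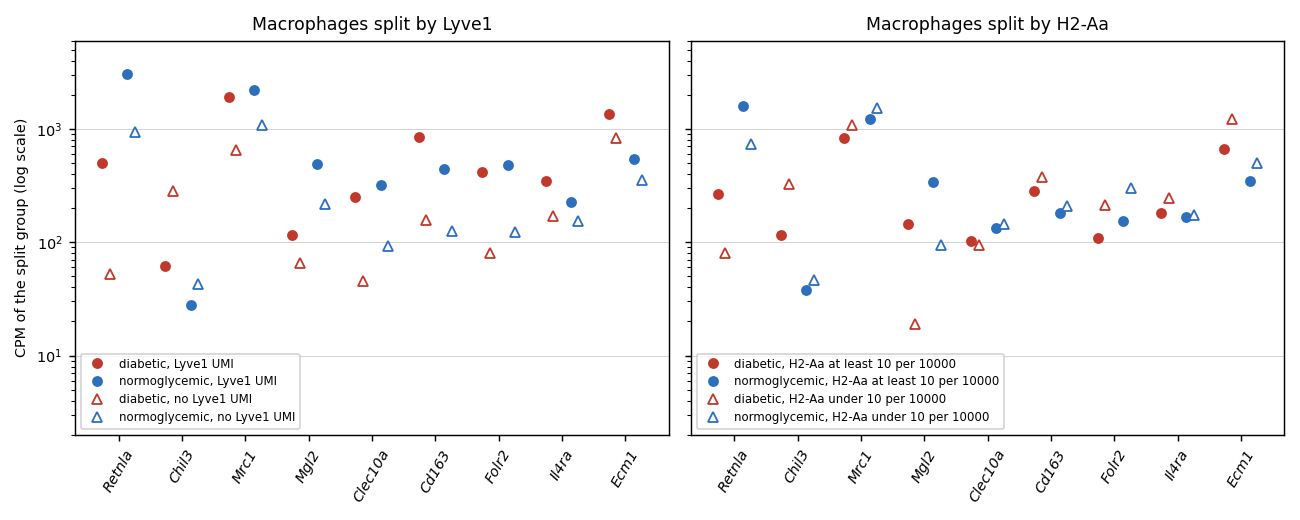
CPM (log scale) of the 9 genes in gated macrophages split by a Lyve1 UMI (left panel) and by H2-Aa at 10 per 10000 UMIs (right panel), diabetic left of normoglycemic. Retnla was at 504.1 CPM in diabetic and 3071 CPM in normoglycemic Lyve1-bearing macrophages, and Mgl2 at 18.9 CPM in diabetic and 95.3 CPM in normoglycemic macrophages low in H2-Aa.

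Ecm1 (ENSMUSG00000028108, chromosome 3, 95734147 to 95739569, minus strand) encodes extracellular matrix protein 1, a secreted glycoprotein. It stood at 966.9 CPM in diabetic and 390.8 CPM in normoglycemic macrophages (2.47, 2.40 to 2.55), and at 378.3 CPM in diabetic and 174.1 CPM in normoglycemic monocytes (2.17, 2.06 to 2.29). It was detected in 85.4% of diabetic and 77.2% of normoglycemic macrophages, and in 46.6% and 28.7% after thinning, against 2.01% and 0% of thinned B cells. The higher level was found on both sides of both splits: 1349 CPM in diabetic and 537.7 CPM in normoglycemic macrophages with Lyve1, 836.7 and 354.6 CPM without. Macrophages with little H2-Aa had 1234 CPM in the diabetic and 503.2 CPM in the normoglycemic library. Type 2 conventional dendritic cells went the other way, at 116.1 CPM in the diabetic and 173.5 CPM in the normoglycemic library (0.669, 0.614 to 0.729), which did not reach the fold for a call. Mature dendritic cells had 48 UMIs in the diabetic and 20 in the normoglycemic library (2.50, 1.46 to 4.46). An Ecm1 UMI was found in 31.9% of diabetic and 16.9% of normoglycemic mature dendritic cells, at median depths of 13873 and 14915 UMIs. After thinning 1 of 68 diabetic and 2 of 71 normoglycemic cells kept one, too few to read a difference. Ecm1 was not confined to leukocytes, since cells with fibroblast markers held 730.1 CPM in the diabetic (262 cells) and 837.6 CPM in the normoglycemic library (23 cells). Fibroblast markers summed to 9.55 CPM in diabetic and 10.6 CPM in normoglycemic macrophages, with 6 of 6 and 5 of 6 markers above 0.

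Among the lectin receptors Mrc1 (ENSMUSG00000026712, chromosome 2, 14229392 to 14332057, plus strand) encodes the mannose receptor CD206. It stood at 971.1 CPM in diabetic and 1311 CPM in normoglycemic macrophages (0.741, 0.724 to 0.758), not called. Macrophages with a Lyve1 UMI had Mrc1 at 1900 CPM in the diabetic and 2195 CPM in the normoglycemic library (0.866, 0.836 to 0.896). Those without had 654.8 and 1093 CPM (0.599, 0.581 to 0.618), which is past 1.5-fold lower. Over all macrophages its share of cells was 80.8% in the diabetic and 88.7% in the normoglycemic library, and 50.5% and 59.6% after thinning. Mrc1 was called lower in type 2 conventional dendritic cells, at 235.5 CPM in the diabetic and 388.2 CPM in the normoglycemic library (0.607, 0.572 to 0.644). That call ended in female cells, at 270.3 CPM diabetic and 344.0 CPM normoglycemic (0.786, 0.704 to 0.875), and in cells classed by cluster. Monocytes had 131.8 CPM in the diabetic and 168.4 CPM in the normoglycemic library (0.783, 0.729 to 0.841), and mature dendritic cells 66.9 and 69.8 CPM (0.958, 0.677 to 1.35). In type 1 conventional dendritic cells it stood at 9.97 and 29.2 CPM (0.342, 0.236 to 0.486), with 5 normoglycemic cells holding 56.1% of the UMIs and a normoglycemic B cell level of 38.0 CPM, so that value is within background.

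Mgl2 (ENSMUSG00000040950, chromosome 11, 70130329 to 70137550, plus strand) encodes macrophage galactose-type lectin 2, also called CD301b. In macrophages it stood at 78.1 CPM in the diabetic and 271.6 CPM in the normoglycemic library, a ratio of 0.288 (0.268 to 0.308). Type 2 conventional dendritic cells had 662.5 CPM in the diabetic and 1362 CPM in the normoglycemic library, a ratio of 0.487 (0.470 to 0.503). Here the share of cells differed along with the class level. A Mgl2 UMI was found in 57.1% of diabetic and 81.0% of normoglycemic type 2 conventional dendritic cells (34.6% and 55.4% after thinning). Thinned B cells gave 0.671% and 0.974%. The class level includes the share, and the level within Mgl2-bearing cells is not given here. In macrophages the share was 20.5% in the diabetic and 47.7% in the normoglycemic library (6.39% and 17.4% after thinning). Markers of type 2 conventional dendritic cells summed to 254.5 CPM in diabetic and 308.0 CPM in normoglycemic macrophages, with 8 of 8 above 0, and their part in the Mgl2 value was not tested. Type 1 conventional dendritic cells had 21.8 CPM in the diabetic and 62.0 CPM in the normoglycemic library (0.351, 0.275 to 0.445), carried for 80.2% and 72.4% by 4 and 8 cells. Mature dendritic cells were opposite, at 79.8 and 49.7 CPM (1.61, 1.12 to 2.32), but with 3 diabetic cells holding 70% of the UMIs. Monocytes held 11.95 and 11.8 CPM.

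Mgl2 in macrophages went with MHC class II. Macrophages with at least 10 H2-Aa UMIs per 10000 had 146.3 CPM in the diabetic (461 cells) and 341.7 CPM in the normoglycemic library (815 cells), and those with less had 18.9 and 95.3 CPM. Mgl2 was therefore lower in the diabetic library within each level of H2-Aa (0.428, 0.397 to 0.461 and 0.198, 0.161 to 0.242), while fewer diabetic macrophages were high in H2-Aa. Its correlation with H2-Aa across macrophages was 0.36 in both libraries.

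Clec10a (ENSMUSG00000000318, chromosome 11, 70156197 to 70170834, plus strand) encodes the related lectin CD301a and lies next to Mgl2. It stood at 98.0 CPM in diabetic and 137.3 CPM in normoglycemic macrophages (0.713, 0.664 to 0.766), not called. Macrophages with a Lyve1 UMI had Clec10a at 252.8 CPM in the diabetic and 321.0 CPM in the normoglycemic library (0.788, 0.716 to 0.866). Those without had 45.2 and 92.0 CPM (0.492, 0.439 to 0.550), which is past 1.5-fold lower. Type 2 conventional dendritic cells had 232.4 and 227.5 CPM, a ratio of 1.02 (0.957 to 1.09), in the same cells in which Mgl2 was at 0.487. Across macrophages Mgl2 and Clec10a correlated at 0.39 in the diabetic and 0.45 in the normoglycemic library, whereas across type 2 conventional dendritic cells they correlated at -0.13 and -0.11. Even so, a Clec10a UMI was found in 65.1% of diabetic type 2 conventional dendritic cells with Mgl2 and 61.0% of those without, and in 70.7% and 52.5% of the normoglycemic ones. Mrc1 and Mgl2 correlated at 0.52 in diabetic and 0.42 in normoglycemic type 2 conventional dendritic cells, and Mrc1 and Clec10a at -0.07 and -0.06. The 2 transcripts were 94.4% identical over 755 aligned bases, so reads within that stretch may be split between them or dropped by the counting. Clec10a in monocytes (12.6 and 14.5 CPM), type 1 conventional dendritic cells (8.39 and 20.4 CPM) and mature dendritic cells (33.9 and 28.7 CPM) was low in both libraries, and the call as lower in type 1 conventional dendritic cells (0.411, 0.272 to 0.611) rests on 37 diabetic and 86 normoglycemic UMIs.

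Cd163 (ENSMUSG00000008845, chromosome 6, 124304656 to 124330527, plus strand) encodes the scavenger receptor for haptoglobin and hemoglobin complexes. It stood at 330.6 CPM in diabetic and 188.9 CPM in normoglycemic macrophages, a ratio of 1.75 (1.67 to 1.84). The intervals of the share of cells with a UMI overlapped, at 31.5% (28.8 to 34.4) in the diabetic and 28.6% (26.0 to 31.2) in the normoglycemic library. After thinning they did not overlap, at 18.4% (16.2 to 20.9) in the diabetic and 13.4% (11.5 to 15.5) in the normoglycemic library. Macrophages with a Lyve1 UMI had 844.4 CPM in the diabetic and 445.4 CPM in the normoglycemic library (1.90, 1.77 to 2.03), and those without had 155.6 and 125.6 CPM (1.24, 1.15 to 1.33). The ratio thus passed 1.5-fold in the Lyve1-bearing cells and not in the others, and the difference between the 2 ratios was not tested. In type 2 conventional dendritic cells Cd163 stood at 85.3 and 95.4 CPM (0.894, 0.804 to 0.993). In monocytes it stood at 10.0 and 2.73 CPM (3.67, 2.44 to 5.63), called higher but with 2 diabetic cells holding 40.9% of 93 UMIs and a thinned share of 0.725% in the diabetic and 0.194% in the normoglycemic library, within what B cells allow. Type 1 conventional dendritic cells had 3.63 and 8.07 CPM. Mature dendritic cells had 0 UMIs in the diabetic library, which allows up to 2.99 CPM, and 2 in the normoglycemic library.

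Folr2 (ENSMUSG00000032725, chromosome 7, 101839988 to 101857194, minus strand) encodes folate receptor beta. It stood at 165.6 CPM in diabetic and 194.8 CPM in normoglycemic macrophages (0.850, 0.804 to 0.900), and was detected in 48.3% and 50.7% of them. With a Lyve1 UMI it stood at 414.5 and 485.2 CPM (0.854, 0.792 to 0.921), and without at 80.9 and 123.1 CPM (0.657, 0.601 to 0.717). It reached 10 CPM in no other class compared, with 4.85 and 3.39 CPM in monocytes and at most 8.61 CPM in any dendritic cell class compared. Among the 5 classes compared, Folr2 was thus the one member under 10 CPM in both libraries in every class but macrophages. Folr2 and Lyve1 correlated at 0.56 across diabetic and 0.47 across normoglycemic macrophages. Cd163 and Lyve1, both known as markers of resident macrophages, gave 0.47 and 0.27. Of the members Cd163 and Folr2, Cd163 was called higher and Folr2 was not called in macrophages as a whole. Without a Lyve1 UMI, Folr2 was past 1.5-fold lower (0.657) and Cd163 did not reach 1.5-fold (1.24). A Lyve1 UMI was found in 46% of diabetic and 34.6% of normoglycemic macrophages with Cd163, and in 43.7% and 32.9% of those with Folr2.

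Il4ra (ENSMUSG00000030748, chromosome 7, 125552120 to 125579474, plus strand) encodes the receptor chain for IL-4 and IL-13. It stood at 214.4 CPM in diabetic and 167.6 CPM in normoglycemic macrophages (1.28, 1.21 to 1.35), and at 95.2 and 130.1 CPM in monocytes (0.731, 0.673 to 0.795). Type 2 conventional dendritic cells stood at 114.3 and 103.9 CPM (1.10, 1.001 to 1.21), in type 1 at 42.6 and 40.6 CPM (1.05, 0.849 to 1.30) and in mature dendritic cells at 100.8 and 115.7 CPM (0.871, 0.662 to 1.14). Il4ra was called in none of the 5 classes, although macrophages with a Lyve1 UMI stood at 345.0 and 228.0 CPM (1.51, 1.37 to 1.67). It was also the member found most widely, with T cells at 90.9 and 113.7 CPM and neutrophils at 82.4 and 97.4 CPM, both cell types that respond to IL-4. The receptor transcript was thus detected in the macrophages of both libraries, while Retnla was lower and Chil3 higher in the diabetic one.

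**Figure D4:**
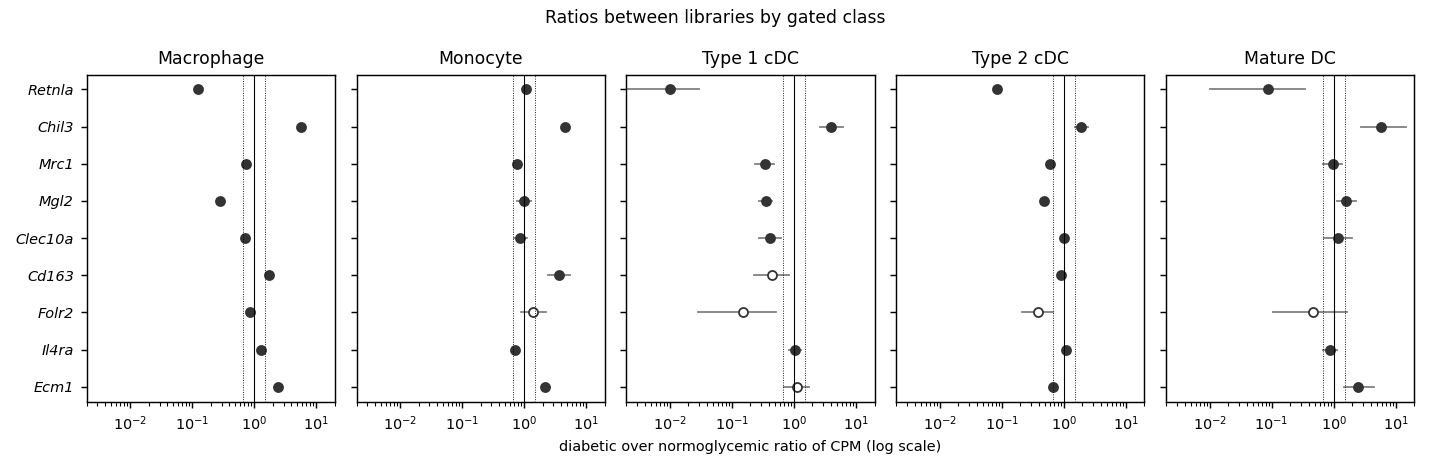
Diabetic over normoglycemic ratio of CPM (log scale) of each gene in 5 gated classes, with 95% counting intervals. Dotted lines mark 1.5-fold in either direction, open points are genes under 10 CPM in both libraries, and Cd163 in mature dendritic cells is not drawn because no diabetic UMI was counted. Retnla was at 0.123 and Chil3 at 5.72 in macrophages, on opposite sides of 1.

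The order of classes by level was read within each library, with counting intervals as the only spread. Macrophages led in both libraries for Mrc1, Folr2, Cd163, Il4ra and Ecm1 among the 5 classes, and for Retnla, while monocytes led for Chil3 and type 2 conventional dendritic cells for Mgl2 and Clec10a. In the normoglycemic library Retnla ran 1359 CPM in macrophages, 812.8 CPM in type 2 and 68.1 CPM in type 1 conventional dendritic cells, 32.0 CPM in monocytes and 23.0 CPM in mature dendritic cells, where the last 2 overlap in their intervals. In the diabetic library it ran 167.5 CPM in macrophages, 67.9 CPM in type 2 conventional dendritic cells and 34.8 CPM in monocytes. Mature dendritic cells had 2.00 CPM and type 1 conventional dendritic cells 0.680 CPM, and these again overlap. Below macrophages these ranks rest on few cells, except in normoglycemic type 2 conventional dendritic cells. Without their 2 highest cells, normoglycemic type 1 cells had 10.1 CPM, diabetic type 2 cells 3.46 CPM and diabetic monocytes 2.60 CPM. Normoglycemic B cells, the measure of free RNA, averaged 51.4 CPM, above monocytes and mature dendritic cells there. No order is therefore read beyond macrophages first and, in normoglycemic cells, the type 2 class second. Mrc1 and Ecm1 kept macrophages first but differed in second place, type 2 conventional dendritic cells for Mrc1 and monocytes for Ecm1, except that in the normoglycemic library Ecm1 in monocytes (174.1 CPM) and type 2 conventional dendritic cells (173.5 CPM) did not differ beyond counting error.

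Both libraries held cells with Xist and cells with Y-linked transcripts, so cells called female (Xist and no Y-linked UMI) and male (a Y-linked UMI and no Xist) come from different mice of each pool. How many mice each call covers is not known, free RNA can cause wrong calls, and the calls are not replicates. The mix of calls also differed between libraries within a class. Monocytes had 203 female and 427 male cells in the diabetic library, against 47 and 723 in the normoglycemic one. Type 2 conventional dendritic cells had 102 and 241, against 212 and 226. The part of this mix in the class ratios was not tested. In macrophages called female (438 diabetic, 377 normoglycemic) Retnla stood at 205.2 CPM in the diabetic and 2086 CPM in the normoglycemic library (0.0984, 0.0925 to 0.104). In those called male (402 and 527) it stood at 87.1 and 997.7 CPM (0.0873, 0.0785 to 0.0969). Chil3 stood at 264.1 and 49.8 CPM in females and at 149.2 and 28.9 CPM in males. Retnla and Chil3 thus had the same direction in macrophages of both sexes, as did Mgl2 (0.264 and 0.223) and Ecm1 (2.73 and 2.13). Cd163 was at 2.27 (2.09 to 2.46) in female and 1.40 (1.30 to 1.51) in male macrophages, so the 1.5-fold was passed in female cells and not in male ones, a difference that was not tested. In monocytes Chil3 was at 2442 CPM in diabetic and 502.6 CPM in normoglycemic female cells and at 2120 and 504.8 CPM in male cells. Type 2 conventional dendritic cells had Retnla at 4.17 and 707.9 CPM in female and 92.8 and 415.4 CPM in male cells. A single male diabetic cell held 342 of the 350 UMIs behind the 92.8 CPM, so no difference between the sexes is read from it.

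**Figure D5:**
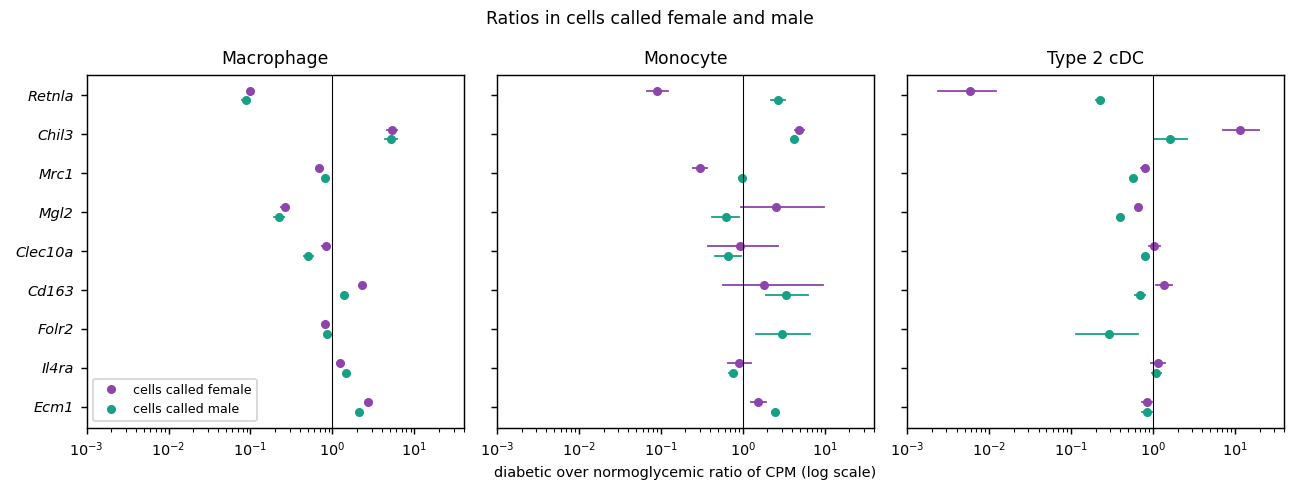
Diabetic over normoglycemic ratio of CPM (log scale) in cells called female and male, with 95% counting intervals, for genes with at least 20 UMIs over both libraries. In macrophages Retnla was at 0.0984 in female and 0.0873 in male cells, and in monocytes at 0.0909 and 2.71.

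The rest of the pathway was read from lists of genes named for their role. Beside every list count stand the shares of all measured genes, 2.66% higher and 3.81% lower in macrophages. The shares were 5.57% and 8.01% in monocytes, 5.35% and 6.79% in type 1 and 5.27% and 6.45% in type 2 conventional dendritic cells. The lists are short and were chosen with earlier results of these data known. Their counts are therefore not independent of the data and were not tested against these shares. Of 11 measurable genes for IL-4 and IL-13 ligands, receptors and transducers, 0 were higher and 2 lower in macrophages, with a median log2 ratio of -0.21. The lower ones were the STAT-induced feedback inhibitors Socs1 (10.1 CPM diabetic, 21.1 CPM normoglycemic, 0.479, 0.387 to 0.590) and Cish (20.4 and 38.1 CPM, 0.535, 0.460 to 0.621). Stat6 itself stood at 67.0 and 69.6 CPM (0.963, 0.878 to 1.05). Socs1 and Cish were also lower in monocytes (0.428 and 0.408) and in type 2 conventional dendritic cells (0.269 and 0.406). Irs2, an adaptor of the IL-4 receptor, was lower in both of those classes (0.664 and 0.610), with 0 of 11 genes higher and a median log2 ratio of -0.31 and -0.04. The cytokine genes themselves were near the floor of 3 counts: Il4 gave 0 UMIs in diabetic and 1 in normoglycemic macrophages, and Il13 gave 1 and 3.

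Of 10 measurable transcription factors of alternative activation 0 were higher and 4 lower in macrophages (median log2 ratio -0.40). They were Irf4 (11.5 CPM diabetic, 21.0 CPM normoglycemic, 0.550), Batf3 (0.587), Myc (0.596) and the histone demethylase gene Kdm6b (428.9 and 659.4 CPM, 0.651). Klf4 (0.477) and Myc (0.529) were lower and 0 were higher of 9 in type 2 conventional dendritic cells. In monocytes Irf4 was higher (1.87) and Klf4 lower (0.627) of 8.

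Of 18 measurable other genes raised by IL-4 or IL-13 in mouse macrophages, 3 were higher and 6 lower in macrophages (median log2 ratio -0.23). Higher was Arg1, encoding arginase 1, at 445.3 CPM in the diabetic and 114.9 CPM in the normoglycemic library (3.88, 3.67 to 4.09), with Msr1 (1.66) and Mmp13 (1.52). Lower were Rnase2a (6.45 and 58.8 CPM, 0.110), Cd209d (0.345), Ear2 (0.412), Igf1 (49.4 and 119.4 CPM, 0.414), Ccl8 (343.7 and 660.8 CPM, 0.520) and Il1rn (0.664). In monocytes Arg1 (1616 and 842.2 CPM, 1.92), Ccl24 (2.11), Mmp12 (1.91) and Ear2 (3.22) were higher and Cd200r1 (0.462) and Il1rn (0.407) lower of 15. Of 17 in type 2 conventional dendritic cells 1 was higher, Msr1 (1.58), and 9 were lower (median log2 ratio -1.13). These were Alox15 (0.0504), Cd209e (0.117), Flt1 (0.279), Cd209d (0.336), Mmp12 (0.355), Ear2 (0.442), Cd36 (0.444), Il10 (0.445) and Il1rn (0.456). Rnase2a, Ear2 and the Cd209 genes belong to families of close copies, so their counts are uncertain. The list as a whole, like the 9 members, thus held genes of both directions in macrophages and monocytes, while in type 2 conventional dendritic cells its lower genes outnumbered its higher ones. Of 13 resident macrophage genes Lyve1 (2.07), Fcna (2.07) and Vsig4 (2.20) were higher and Timd4 (0.380) and Clec4n (0.544) lower in macrophages. Of 7 in monocytes Selenop was higher (1.63) and Clec4n (0.297) and Ednrb (0.406) lower, and of 6 in type 2 conventional dendritic cells Maf (0.239), Selenop (0.623) and Ninj1 (0.658) were lower. Paralogs of the members were mostly too low to measure: Chil1, a chitinase-like relative of Chil3, was lower in macrophages (2.94 CPM diabetic, 11.5 CPM normoglycemic, 0.256) and monocytes (0.194), and Ly75, a relative of Mrc1, in mature dendritic cells (0.612). In type 1 conventional dendritic cells 0 of 10 ligand, receptor and transducer genes were higher and 3 lower. Transcription factors had 0 of 7 higher and 1 lower, other IL-4-raised genes 2 of 10 and 5, and resident genes 0 of 6 and 6. Of all genes measured in that class 5.35% were higher and 6.79% lower. The same lists in mature dendritic cells had 0 of 11 higher and 5 lower, 0 of 7 and 2, 3 of 16 and 7, and 0 of 9 and 2, beside the wide background given above for that class.

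The genes whose levels ran most like each member were named by Pearson correlation of log2(CPM + 1) over 26 points, 13 classes in 2 libraries, among 12285 genes. For Retnla these were Rnase2a (0.82), Fcrls (0.76) and 2900089D17Rik (0.72), and for Chil3 Apoc2 (0.88), Apoc1 (0.83) and Prtn3 (0.81). For Mrc1 they were Ticam2 (0.91), Clec4a3 (0.88) and Lyz2 (0.85), and for Mgl2 Cd209d (0.88), Ptpro (0.87) and Mmp12 (0.86). Clec10a was nearest to Nrros (0.84), Mknk1 (0.82) and Pip4k2a (0.82), Cd163 to P2ry12 (0.84), Nxpe5 (0.82) and Lair1 (0.77), and Folr2 to Chp2 (0.85), Lyve1 (0.79) and Pf4 (0.79). Ecm1 was nearest to Rassf8 (0.89), Epb41l1 (0.88) and Ccl2 (0.87), while Il4ra, the most widely expressed member, had no gene above 0.72 (Rap1b). No nearest gene was shared between members, and the 26 points share library depth and free RNA. Some points rest on few cells. For Retnla in normoglycemic cells with fibroblast markers, 1 of 23 cells held 98.9% of the UMIs.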

How the data were processed

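Per the labels, each library is a Chromium 3' v3 single-cell library. The authors deposited unnormalized UMI counts for 32285 genes in each cell. Per the file headers they were made with Cell Ranger 4.0.0. The submitters' processing notes name version 6.0.2 instead, with the build mm10, and the annotation release is not given in the sources used here. The lowest deposited barcode had 500 UMIs, so counts had been filtered. Antibody capture features C1 to C4, 250351 UMIs diabetic and 700188 normoglycemic, have no key and were not used, and 0 other columns of per-sample values occur.

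Cells were kept with at least 500 UMIs, 200 genes and at most 15% mitochondrial UMIs, which removed 236 diabetic and 332 normoglycemic barcodes and left 10260 and 10948. Each cell was scored on markers of 21 classes (mean z score, at least 3 markers, score at least 0.5, margin at least 0.25 over the next class). UMIs were summed per class and library and scaled to CPM. Ratio intervals are exact conditional binomial, shares exact Clopper-Pearson, levels exact Poisson; log2 ratios used a pseudocount of 0.5 counts, and the limit for a count of 0 is 3 counts. Thinning drew 1000 UMIs per cell without replacement, leaving out 14 diabetic and 19 normoglycemic macrophages. Doublets stayed in the main values, and an alternative dropped the 842 diabetic and 959 normoglycemic cells with the most simulated doublets among their neighbours. Their number was set by an assumed doublet rate of 0.8% per 1000 kept cells. The ratio and its interval were run on simulated counts drawn independently for each gene, the setting that the interval assumes. Real UMIs cluster within cells, so that run cannot show how well the intervals hold here. No replicates exist, so no test across samples was made.

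Named were all 9 members in every class, listed genes at least 1.5-fold apart with the interval wholly beyond 1, and the 3 nearest genes per member. Stat6, Il4, Il13 and the genes used to split macrophages are named besides. Of the lists, the values given in most detail are for macrophages, monocytes and type 2 conventional dendritic cells. The members and lists were chosen with earlier results of these data known. Gene coordinates come from GENCODE M21 by ID (9 of 9 matched). Scanpy 1.11.5, leidenalg 0.10.2, numpy 2.4.6, scipy 1.17.1, pandas 2.3.3, matplotlib 3.10.9 and biopython 1.88 were used in Python 3.11.15. In R 4.3.3, edgeR 4.0.16 and DESeq2 1.42.0 gave scaling factors only.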

Additional observations from a re-analysis of the deposited data

Results flagged for a closer look

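Retnla in monocytes differed in direction between cells called female and male. Its ratio was 0.0909 (0.0673 to 0.122) in female monocytes, at 26.5 CPM in the diabetic (203 cells) and 291.4 CPM in the normoglycemic library (47 cells). The ratio was 2.71 (2.22 to 3.30) in male monocytes, at 52.8 CPM in the diabetic (427 cells) and 19.5 CPM in the normoglycemic library (723 cells). The difference was not tested, since each sex is 1 pool per library. Monocytes with at least 10 Retnla UMIs numbered 2 in the diabetic and 4 in the normoglycemic library, and the highest single male diabetic cell held 237 of the 250 UMIs of its group. The share of male monocytes with a Retnla UMI was 2.81% in the diabetic and 12.3% in the normoglycemic library, opposite to their CPM, so no order is read from these values.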

How the results depend on the processing

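No paired analysis was possible because each condition has 1 library, and for the same reason no replicate could be left out. Of the 21 member ratios called in the 5 classes, all kept their direction under TMM and median-of-ratios scaling, equal weight per cell, the stricter cell filter (1000 UMIs, 10% mitochondrial), a wider gate margin, male cells alone and removal of shared barcodes. Under cluster-based classes, removal of the highest doublet scores and female cells alone, 20 of 21 did. The cause was not tested for those that turned: log2 Chil3 in type 1 conventional dendritic cells was -0.17 with cluster classes and -0.52 without the highest doublet scores, and log2 Mgl2 in mature dendritic cells was -4.47 in female cells (9 diabetic, 24 normoglycemic). The difference in share of mature dendritic cells with Il4ra was 3.25 points after thinning, and with Ecm1 -1.35 points, both reversed from the unthinned values. A kept direction is not a kept call. The 1.5-fold was no longer reached, in log2, for Cd163 in macrophages in male cells (0.48), for Mrc1 in type 2 conventional dendritic cells with cluster classes (-0.57) and in female cells (-0.35), for Chil3 there with cluster classes (0.27) and for Ecm1 in mature dendritic cells in male cells (0.20). In type 1 conventional dendritic cells it was lost with cluster classes for Mrc1 (-0.04), Mgl2 (-0.56) and Clec10a (-0.28). Equal weight per cell lost it for Mrc1 (-0.37) and Clec10a (-0.57), a wider margin for Clec10a (-0.39) and male cells for Mgl2 (-0.21). The cluster named for type 1 cells had 130 diabetic and 110 normoglycemic cells, of which 40 and 24 were gated type 1 cells. Its values, with that of Chil3, are thus mostly of cells not gated as type 1. They cannot show how the gated type 1 ratios depend on the processing. The 1.5-fold was newly reached in macrophages for Clec10a in male cells (-0.98) and Il4ra with equal weight per cell (0.60). Counts of called members moved in monocytes from 3 to 5 with cluster classes, 7 in female and 5 in male cells. They moved to 2 of the main 5 in type 1 conventional dendritic cells at 50 CPM or more, to 2 of the main 4 in type 2 with cluster classes, and in mature dendritic cells to 1 of the main 4 at 50 CPM and 2 with the interval wholly beyond 1.5-fold. In macrophages the called log2 ratios ran from -3.52 to -2.42 for Retnla, 2.37 to 2.88 for Chil3, -2.16 to -1.78 for Mgl2, 0.48 to 1.18 for Cd163 and 1.09 to 1.45 for Ecm1. Added after seeing the data were removal of shared barcodes and of 177 macrophages (99 diabetic, 78 normoglycemic) in a cluster with Langerhans cell markers, which kept all 5 directions. Neither scaling moved the median of all genes by as much as 0.1 log2. The small number of mature dendritic cells, 69 diabetic and 71 normoglycemic, limits their values.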

Other observations

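Members were also counted outside the classes compared. Clec10a stood at 326.6 CPM in diabetic (31 cells) and 193.3 CPM in normoglycemic plasmacytoid dendritic-cell-like cells (14 cells), and at 114.7 and 278.6 CPM in mast-cell-like cells (65 and 42 cells, 20 and 47 UMIs). Mgl2 stood at 176.7 CPM in diabetic (39 cells) and 358.8 CPM in normoglycemic Langerhans-cell-like cells (110 cells), a ratio of 0.492 (0.401 to 0.600). Ecm1 in those cells stood at 132.9 and 36.0 CPM (3.69, 2.67 to 5.13). A single normoglycemic cell with fibroblast markers held 281 of the 284 Retnla UMIs of its 23-cell class, and the 262 diabetic cells of that class held 4. Across normoglycemic type 2 conventional dendritic cells Retnla correlated with Ecm1 at 0.52, against 0.17 across diabetic ones, of which 2 had at least 10 Retnla UMIs.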
